A study of Mus musculus with 24 samples.

Results

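The EGF family was followed in mouse lacrimal gland (LG) and in spheres of lacrimal gland stem cells (LGSC) through 10 genes taken by family membership, with no threshold on their values: the ligands Egf, Tgfa, Areg, Ereg, Btc, Hbegf and Nrg1, and the receptors Egfr, Erbb2 and Erbb4. They are 10 of the 63862 genes listed for each of 20 libraries. The study asked how LGSC expand and differentiate in serum-free 3D culture, and compared spheres at several culture days with the gland itself. The LGSC came from LG of C57BL/6 mice aged 6 to 8 weeks and were grown in Matrigel in a medium with murine EGF, FGF10, Wnt3A and the ROCK inhibitor Y-27632, which the spheres of every day shared. Spheres of passage 2 were taken on culture day 5 (2 libraries), day 7, day 10 and day 14 (3 libraries each). The gland of the same strain was sampled whole in the adult (adult LG, with no age in weeks given) and at 2 embryonic stages (E17.5 LG and E19.5 LG, named by the embryonic day), with 3 libraries each. A single library of passage 10 spheres at day 7 was listed against another set of genes and entered no test. The labels do not say whether replicates were separate animals or cultures, so p-values measure the spread between these libraries.

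ErbB receptors are tyrosine kinases of the cell surface that pair when a ligand binds and start the RAS-MAPK, PI3K-AKT and STAT3 routes. EGF, TGFA, AREG, EREG, BTC and HBEGF bind EGFR, while BTC, HBEGF and EREG also bind ERBB4, and NRG1 binds ERBB3 and ERBB4. ERBB2 has no ligand of its own and serves as the preferred partner. The ligands are made as membrane proteins and released by metalloproteases, and the signal is damped by inhibitors that it induces. In epithelia and exocrine glands the pathway is known for supporting growth and branching, and EGF is a protein of tear fluid.

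Values are taken as FPKM (fragments per kilobase of transcript, relative to a scale of each library), which allow levels of different genes to be set side by side. Whole reads could be recovered from them, 5993542 to 9393356 per library in the 20 libraries and 24764594 at passage 10. The adult libraries stood apart. In these 3 the top 10 genes held 53.5%, 51.7% and 25.6% of all reads, against at most 7.93% in the other 17, and the recovered reads were 2.48, 2.31 and 1.07 times the scale of the deposited values. Values scaled to the recovered reads instead shifted the median difference of all genes by 0.46 (log2) for E17.5 LG against adult LG and by 0.53 for LGSC day 7 against adult LG, so both scales are given where they part. Which scale is nearer to the levels in the adult gland was not tested. A further limit is that many genes used by every cell were listed near 0 in the 20 libraries: Gapdh and the epithelial marker Epcam were at 0 in each, and Hprt reached at most 1.00 FPKM while it stood at 99.4 at passage 10. A value near 0 in these libraries is therefore given as listed and not read as a low level. Marker genes for acinar cells summed to 167 to 449 FPKM in adult LG, 0.0978 to 0.183 in E17.5 LG and 0.112 to 1.18 in day 7 spheres, with 4 of 6 above 0 in the adult and Bhlha15 and Lcn11 at 0 in all 20 libraries. Fibroblast and mesenchyme markers summed to 4730 to 5447 FPKM in E17.5 LG, 164 to 323 in adult LG and 0.263 to 0.643 in day 7 spheres, where Col1a2, Col3a1, Dcn, Lum and Pdgfrb were at 0. These are bulk samples, in which fewer cells of a type and less RNA per cell cannot be told apart.

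The sequences just before a RefSeq start of Egf, Tgfa and Btc are shown because Egf moved opposite to the other ligands between spheres and adult gland. They are the 250 bases before that start (build GRCm38.p6), written 5′ to 3′ on the gene's strand, with GGGCGG, the core of a GC box, in capitals on either strand. The search covered both strands. Of 32851 promoters of this length 12.4% held the TATA box (TATAAA), 32.7% held the GC box, 6.75% the AP-1 motif (TGANTCA) and 1.55% the cAMP response element (TGACGTCA). Starts of 7 of the 10 members were in the table used here.
Egf, chr3:129755323-129755572, minus strand: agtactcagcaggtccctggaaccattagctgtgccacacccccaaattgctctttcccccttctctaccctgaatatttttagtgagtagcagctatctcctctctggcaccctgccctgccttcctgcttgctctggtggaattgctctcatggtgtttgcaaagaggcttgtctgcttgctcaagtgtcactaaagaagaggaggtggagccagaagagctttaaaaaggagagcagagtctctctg
Tgfa, chr6:86194972-86195221, plus strand: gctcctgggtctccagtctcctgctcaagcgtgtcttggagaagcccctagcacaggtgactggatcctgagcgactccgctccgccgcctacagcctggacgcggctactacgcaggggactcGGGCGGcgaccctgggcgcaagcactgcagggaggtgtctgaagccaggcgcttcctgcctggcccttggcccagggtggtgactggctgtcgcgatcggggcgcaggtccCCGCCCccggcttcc
Btc, chr5:91402995-91403244, minus strand: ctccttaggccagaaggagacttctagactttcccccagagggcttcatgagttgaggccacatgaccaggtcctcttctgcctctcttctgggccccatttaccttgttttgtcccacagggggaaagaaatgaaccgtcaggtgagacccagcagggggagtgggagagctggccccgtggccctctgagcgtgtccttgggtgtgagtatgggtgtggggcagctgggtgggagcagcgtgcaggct
The Tgfa sequence held GGGCGG at 2 places, 126 and 15 bases before the start, with 69.2% G and C and 19 CG pairs. The Egf sequence shown held none of the 4 motifs and no CG pair, with 50.4% G and C. A second Egf start within the gene, at chr3:129725087-129725336, held none of the motifs either but had 15 CG pairs, with 52% G and C. The Btc sequence held none of the motifs and 4 CG pairs, with 59.6% G and C. The median promoter had 52.4% G and C and 6 CG pairs. A match is a description of letters and was not tied to the expression values.

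Egf, which encodes epidermal growth factor (chromosome 3, 129677565 to 129755316, minus strand, GENCODE M21), was the ligand of the adult gland. It stood at 47.0, 44.3 and 19.2 FPKM in the 3 adult libraries, at 0.627, 0.663 and 0.665 at E17.5 and at 1.63, 1.27 and 1.24 at E19.5. In the 11 passage 2 sphere libraries it lay between 0.104 and 0.238 FPKM, or 10 to 22 reads, and at passage 10 it was 0.101. The order from adult LG through E19.5 LG and E17.5 LG to the spheres held without overlap, while the culture days overlapped each other. The low adult value belonged to replicate 3, whose recovered reads were 1.07 times the scale of the deposited values. In adult replicates 1 and 2 they were 2.48 and 2.31 times that scale. Scaled to recovered reads, Egf was 18.9, 19.1 and 17.9 FPKM in the 3 adult libraries.

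Tgfa, which encodes transforming growth factor alpha (chromosome 6, 86195223 to 86275719, plus strand), showed the opposite order. It was 16.7 and 15.1 FPKM in day 5 spheres, 16.7, 30.9 and 24.4 on day 7, 18.7, 31.9 and 19.9 on day 10, and 22.4, 25.0 and 23.0 on day 14. In the gland it was 4.57, 6.31 and 5.35 FPKM at E17.5, 3.33, 3.29 and 2.47 at E19.5 and 1.53, 2.43 and 4.20 in the adult. Every sphere library was above every gland library, E17.5 LG was above E19.5 LG without overlap, and E19.5 LG overlapped adult LG. Btc, which encodes betacellulin (chromosome 5, 91357261 to 91402994, minus strand), was the steadiest ligand in culture, at 5.32 to 8.08 FPKM over the 11 sphere libraries (median 6.88). It was 2.73, 2.41 and 2.42 FPKM at E19.5, 0.938, 1.06 and 1.96 at E17.5 and 1.19, 1.33 and 0.725 in the adult, and E17.5 LG overlapped adult LG.

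Ereg, which encodes epiregulin (chromosome 5, 91074622 to 91093646, plus strand), was listed at or near 0 in the gland, with 0, 0 and 0.0953 FPKM in adult LG, 0, 0 and 0.0605 at E17.5 and 0.305, 0.404 and 0.494 at E19.5. In spheres it was 2.28 and 12.5 FPKM on day 5, 6.70, 35.5 and 3.73 on day 7, 2.90, 70.2 and 5.21 on day 10, and 5.14, 44.4 and 11.2 on day 14. Its lowest sphere value was above its highest gland value. Hbegf, which encodes heparin-binding EGF-like growth factor (chromosome 18, 36504927 to 36515805, minus strand), was 11.8 and 17.2 FPKM on day 5, 22.1, 53.2 and 20.5 on day 7, 22.2, 145 and 18.8 on day 10, and 37.8, 88.1 and 73.0 on day 14. The gland held 12.6, 9.04 and 11.9 FPKM in the adult, 12.0, 11.3 and 7.79 at E17.5 and 12.0, 16.5 and 17.8 at E19.5. Day 5 spheres overlapped the gland for this gene, and the groups of day 7, 10 and 14 overlapped each other. Its FPKM rested on a transcript length of 2373 bases, against 4834 in GENCODE M21, so its rank among the ligands depends on that length.

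Replicate 2 was the highest library of its day for Ereg on each of the 4 days, at 5.50, 6.81, 17.3 and 5.45 times the mean of the others, and for Hbegf at 1.46, 2.50, 7.08 and 1.59 times. For Btc it was the lowest on each day. Of the 15584 genes tested over the culture days, 12.1% had replicate 2 highest on every day and 3.51% had it at least 2-fold above the mean of the others on every day. Replicate 2 was also the lowest library of each day for the 7 markers of epithelium, which summed to 550 to 730 FPKM in it and 1362 to 2634 in the others, and for the 5 markers of myoepithelium, with 1.02 to 4.79 against 9.43 to 181 FPKM. Epcam and Krt8 were at 0 in all of these libraries. On day 7 Cdh1 (mean 616 FPKM) and Krt18 (671) made up most of the epithelial sum, beside Krt14 (11.3), Krt5 (1.02) and Krt19 (0.220). The part of these markers in the result was not tested. Same-numbered libraries deviated together across genes (mean correlation of deviations 0.46, lowest 0.26). For differently numbered libraries the mean was -0.22, but some were as close, up to 0.44 for day 7 replicate 3 and day 10 replicate 1. The main tests did not use the number, which entered as a block in alternatives. Labels do not say what same-numbered libraries share.

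The receptors were listed low throughout the 20 libraries. Erbb4 (chromosome 1, 68032186 to 69108059, minus strand) had 2.72, 2.07 and 0.605 FPKM in adult LG, 1.06, 0.756 and 0.415 at E17.5 and 0.268, 0.144 and 0.0825 at E19.5. It was listed at 0 in 9 of 11 sphere libraries, with 0.0182 and 0.0195 FPKM (2 reads each) in replicates 1 and 3 of day 14, and at 0 at passage 10. E17.5 LG was above E19.5 LG without overlap, and adult LG overlapped E17.5 LG. Egfr, the receptor of most ligands here, was 0.214 to 0.552 FPKM in the spheres and 0.0366 to 0.127 in the gland, with the sphere groups above adult LG without overlap. Erbb2, the partner receptor, was 0.0283 to 0.124 FPKM in spheres, from 1 to 6 reads, and 0.0213 to 0.159 in the gland. Among the remaining ligands, Nrg1 was 0.119 to 0.890 FPKM in spheres and 0.040 to 0.204 in the gland, and Areg, which encodes amphiregulin, was listed at 0 in all 20 libraries.

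**Figure D1:**
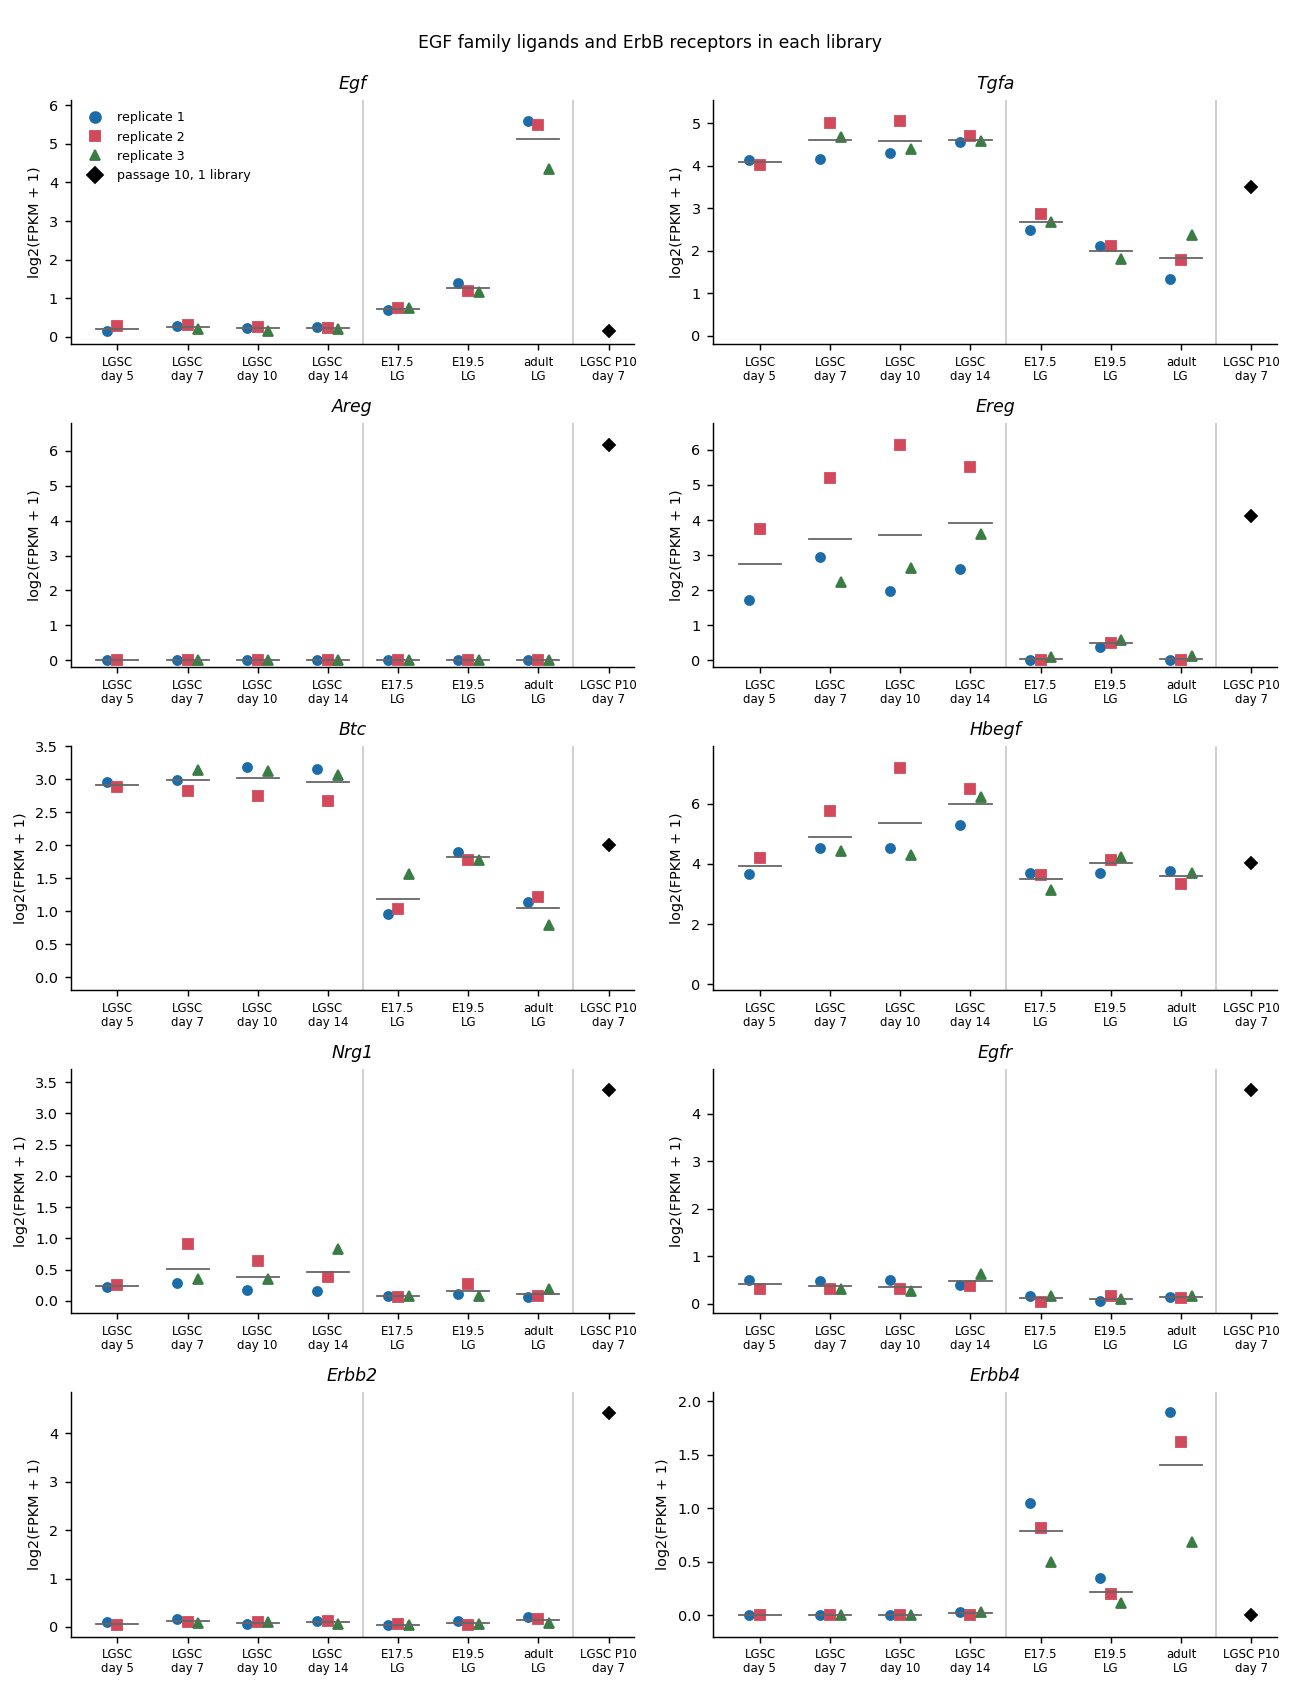
Each panel plots 1 gene, with log2(FPKM + 1) on the vertical axis and the groups on the horizontal axis. Points are libraries, coloured and shaped by replicate number, bars are group means and the diamond is the passage 10 library. Egf is highest in adult LG (47.0, 44.3 and 19.2 FPKM), Tgfa, Btc and Ereg are higher in every passage 2 sphere library than in the gland, and Areg is above 0 at passage 10 alone.

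The comparison of day 7 spheres with the adult gland, the tissue that LGSC are taken from, showed opposite directions for Egf and 4 other ligands. Tgfa was 24.0 ± 7.10 FPKM in spheres and 2.72 ± 1.36 in adult LG (SD, n = 3 each), 8.82 times as high, with a difference of 2.77 ± 0.35 (SE) on the log2(FPKM + 1) scale and an adjusted p of 0.00200 in limma. Btc was 6.91 ± 0.903 against 1.08 ± 0.315 FPKM, 6.39 times as high (1.93 ± 0.21, limma adjusted p = 0.00120). Ereg, with 2 of 3 adult libraries at 0, differed by 3.42 ± 0.72 (limma adjusted p = 0.0124), and by 2.55 ± 0.27 without replicate 2 of day 7. Hbegf was 2.86 times as high (1.31 ± 0.39, limma adjusted p = 0.0410), a call that none of the 6 fits without 1 library kept (adjusted p 0.0517 to 0.125). Egf was 185 times higher in adult LG than in spheres, with a log2 difference of -4.88 ± 0.36 for spheres against adult (limma adjusted p = 0.000358). For Erbb4, listed at 0 on day 7, no fold is given. It passed with a limma adjusted p of 0.0184 (-1.40 ± 0.33), a call lost without any 1 of the 3 day 7 libraries (0.0553 to 0.0627) or without adult replicate 2 (0.0645). Adult replicate 3 differed from the other adult libraries in how far recovered reads stood above the scale of the deposited values. Without it the differences were -5.28 for Egf, 3.04 for Tgfa, 1.803 for Btc, 3.46 for Ereg and -1.76 for Erbb4, all still past the threshold in limma.

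Of the 10 members 6 entered this test, as genes whose mean in the fit reached 0.5 FPKM, and all 6 passed the threshold of 0.05, 4 higher and 2 lower in spheres. Of 17698 genes tested 35.2% passed, 14.2% higher and 21.1% lower, and 52.4% did not overlap between the groups. Egf, Ereg and Erbb4 entered through 1 group each, so that they had to differ to be tested, and the count is given as a description. The median difference was 1.62 over these 6 and -0.08 over all genes. Scaled to recovered reads, Tgfa, Btc, Ereg and Hbegf differed by 3.38, 2.43, 3.52 and 2.20, and Egf by -4.02, all past the threshold, while Erbb4 fell under the filter. The ratios of means on that scale were 13.9 for Tgfa, 13.2 for Btc and 5.08 for Hbegf, and Egf was 86.4 times higher in adult LG, where the deposited scale gave 8.82, 6.39, 2.86 and 185. On that scale 5074 genes were higher and 1918 lower, against 2507 and 3731 on the deposited scale. Acinar markers moved with Egf between these groups, and so did other lists. Myoepithelium summed to 2.37 to 13.6 FPKM on day 7 and 121 to 611 in adult LG. Endothelium summed to 0.0229 to 0.201 and 43.4 to 130, and leukocyte markers to 0.297 to 2.74 and 16.9 to 29.7. Fibroblast and mesenchyme markers were higher in the adult too, while epithelium, nerve and skeletal muscle overlapped. The part of these markers in the result was not tested.

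Against E17.5 LG, the growing gland, the same 4 ligands were again higher in day 7 spheres. Tgfa was 4.43 times as high (5.41 ± 0.872 FPKM at E17.5, SD, n = 3) with a log2 difference of 1.93 ± 0.23 (limma adjusted p = 0.000982). Btc was 5.24 times as high, from 1.32 ± 0.561 FPKM (1.79 ± 0.20, limma adjusted p = 0.000650). Ereg differed by 3.43 ± 0.72 (limma adjusted p = 0.00941), with 2 of 3 E17.5 libraries at 0. Hbegf was 3.08 times as high, from 10.4 ± 2.25 FPKM (1.42 ± 0.38, limma adjusted p = 0.0234), and the call was lost without E17.5 replicate 1 (0.0554), 2 (0.0613) or 3 (0.0854). These were the 4 members tested, of which Ereg entered through the spheres alone and so had to differ, and 47.6% of the 17391 genes tested passed, 18.1% as higher and 29.6% as lower in spheres, while 59.6% did not overlap. Both comparisons share the day 7 libraries. Egf and Erbb4 had a mean under 0.5 FPKM and were not tested, with every E17.5 library above every day 7 library for each. Fibroblast and mesenchyme markers moved with this contrast as given above. Markers of myoepithelium, endothelium, leukocytes, nerve and skeletal muscle were also higher at E17.5 without overlap. Those of epithelium were higher in day 7 spheres without overlap, and acinar markers overlapped. The part of these markers in the result was not tested.

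**Figure D2:**
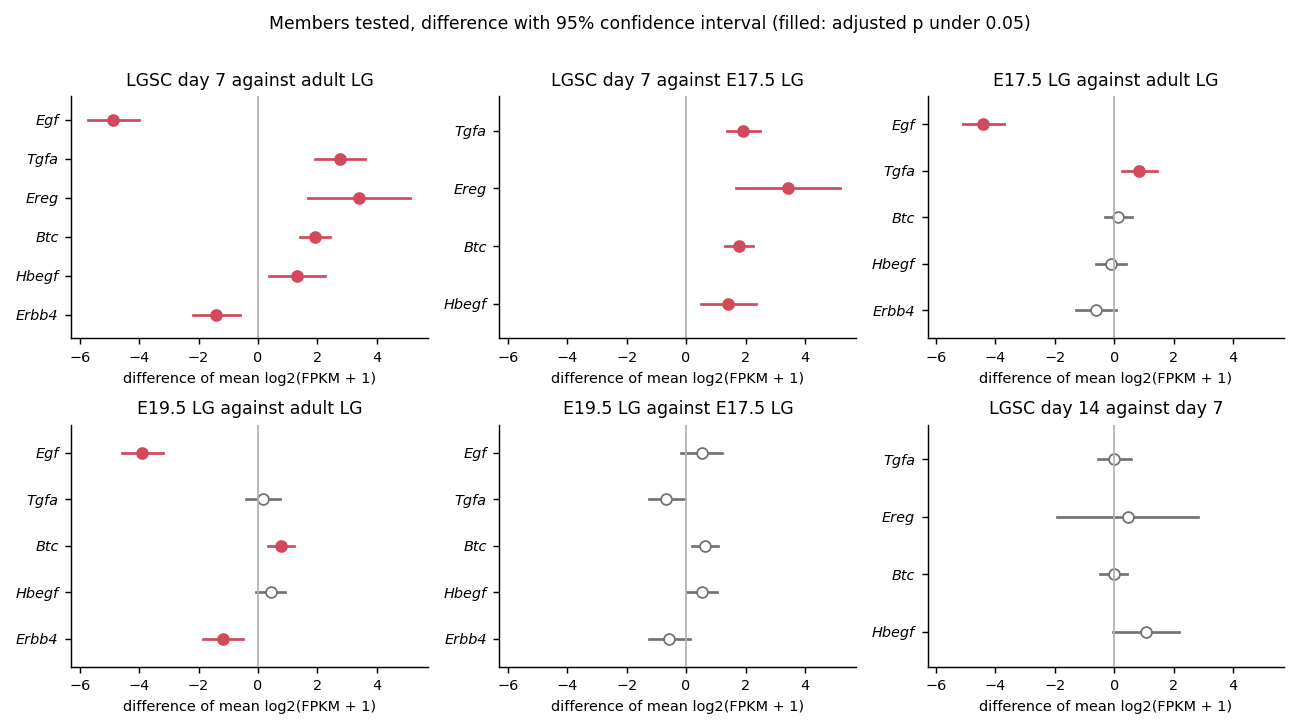
Differences of mean log2(FPKM + 1) are plotted for the members tested in 6 comparisons, with points for the estimate and lines for the 95% confidence interval of the limma fit. Filled points passed an adjusted p of 0.05, as did all 6 members tested for day 7 spheres against adult LG and none for day 14 against day 7.

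Within the gland, Egf rose from embryo to adult. It was 36.8 ± 15.3 FPKM in adult LG (SD, n = 3), 0.652 ± 0.0213 at E17.5 and 1.38 ± 0.217 at E19.5, so the adult was 56.5 and 26.6 times as high, or 28.1 and 14.2 times with values scaled to recovered reads. The log2 differences were -4.42 ± 0.30 for E17.5 (limma adjusted p = 8.43e-06) and -3.89 ± 0.30 for E19.5 (limma adjusted p = 1.93e-05), and both passed in every alternative, with -3.56 and -3.09 on recovered reads. Tgfa was 1.99 times as high at E17.5 as in the adult (0.84 ± 0.26, limma adjusted p = 0.0225), a call lost without adult replicate 1 (0.0554) or 2 (0.0588) or E17.5 replicate 2 (0.0790) or 3 (0.0580). At E19.5 it differed from the adult by 0.17 ± 0.26 (limma adjusted p = 0.598). Btc was 2.33 times as high at E19.5 as in the adult (0.77 ± 0.20, limma adjusted p = 0.00993) and differed by 0.14 ± 0.20 at E17.5 (limma adjusted p = 0.566). On recovered reads Btc was 4.14 times as high at E19.5, and E17.5 passed as well (0.55 ± 0.19, limma adjusted p = 0.0370).

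Erbb4 was 10.9 times higher in adult LG (1.797 ± 1.08 FPKM, SD, n = 3) than at E19.5 (0.165 ± 0.0947), a log2 difference of -1.18 ± 0.30 for E19.5 against adult (limma adjusted p = 0.00979), and 5.37 times higher on recovered reads. Over the 6 embryonic libraries Erbb4 averaged 0.454 FPKM, under the filter of 0.5. It entered the gland fit through the adult libraries, so its call, also counted below, is given as a description. At E17.5 (0.744 ± 0.323) the difference was -0.61 ± 0.30 (limma adjusted p = 0.115), which passed without adult replicate 3 (-0.97, adjusted p = 0.00256) and came to -0.08 on the scale of recovered reads. Hbegf differed by -0.11 ± 0.22 at E17.5 (limma adjusted p = 0.703) and by 0.43 ± 0.22 at E19.5 (limma adjusted p = 0.129), and by 0.68 and 1.11 on the scale of recovered reads, where the sign at E17.5 turned and E19.5 passed (adjusted p = 0.0191). Of the 10 members 5 were tested in the gland. For E17.5 against adult LG 2 of them passed, 1 in each direction, where 54% of 18578 genes passed (29.1% higher, 24.9% lower, and 59.5% without overlap). For E19.5 it was 3, 1 higher and 2 lower, where 54.2% passed (30.3% higher, 23.9% lower, and 58.8% without overlap). A share of this size is near that of all genes. Scaling to recovered reads, which moved the all-gene median by 0.38 for E19.5 against adult LG, gave 8044 calls up and 2086 down for E17.5 in place of 5405 and 4634. For E19.5 it gave 7645 up and 2048 down in place of 5637 and 4440.

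Between E19.5 and E17.5 none of the 5 members passed in limma, where 1.74% of genes passed (1.11% higher and 0.624% lower), though 3 had an unadjusted p under 0.05. Btc differed by 0.63 ± 0.20 (limma adjusted p = 0.167), Tgfa by -0.67 ± 0.26 (limma adjusted p = 0.255) and Hbegf by 0.53 ± 0.22 (limma adjusted p = 0.288). Egf, Tgfa, Btc and Erbb4 did not overlap between the stages, as did 35.1% of all genes tested. On the scale of recovered reads 90 genes were higher and 90 lower, in place of 207 and 116. In the same fit without adult replicate 3, Egf (0.53, adjusted p = 0.0218) and Tgfa (-0.67, adjusted p = 0.0489) passed.

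Over the culture days Hbegf had the steepest mean trend of the ligands. Its group mean was 14.5 ± 3.83 FPKM on day 5 (SD, n = 2), 31.9 ± 18.5 on day 7, 62.0 ± 71.9 on day 10 and 66.3 ± 25.8 on day 14 (n = 3 each). The slope was 0.20 ± 0.075 log2 units per day and did not pass (limma adjusted p = 0.173). With the replicate number as a block, an alternative to the main test, it was 0.21 ± 0.053 and passed (limma adjusted p = 0.0457), and the number of genes called rose from 334 to 783. Day 14 was 2.07 times day 7 in mean FPKM (1.08 ± 0.46, limma adjusted p = 0.504, and 0.289 with the block), and higher within each of the 3 numbers. Ereg had a slope of 0.11 ± 0.13 (limma adjusted p = 0.685, and 0.158 with the block), with group means of 7.41 on day 5, 15.3 on day 7, 26.1 on day 10 and 20.2 on day 14. Tgfa had a slope of 0.039 ± 0.029 (limma adjusted p = 0.490) and Btc of 0.0027 ± 0.019 (limma adjusted p = 0.957), whose 95% interval ran from -0.039 to 0.044 per day.

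Of the 4 members tested in culture none passed in limma without the block, for the slope (2.14% of 15584 genes passed, 0.648% rising and 1.5% falling) or for day 14 against day 7 (0%, or 0 of 15744 genes, with 1557 at an unadjusted p under 0.05 and 17.4% without overlap). For the slope 1 member had an unadjusted p under 0.05 and for day 14 against day 7 it was 0. In limma-voom on the recovered reads the counts of members were 0 in both, and with the block 1 for the slope and 0 for the days. Without replicate 2 of every day, a setting added after the data were seen, the Hbegf slope was 0.20 ± 0.043 (limma adjusted p = 0.0643).

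**Figure D3:**
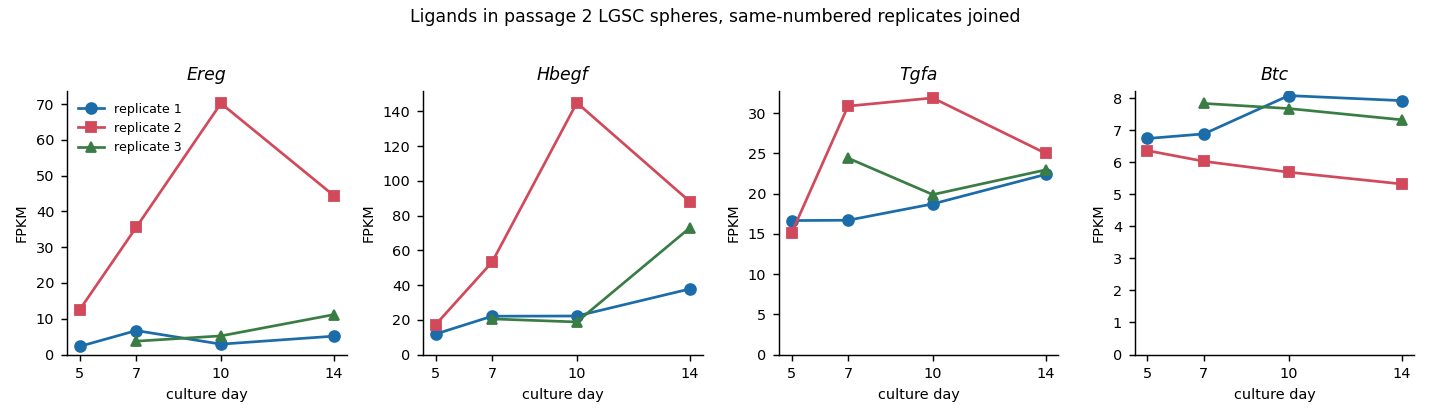
FPKM of Ereg, Hbegf, Tgfa and Btc is plotted against culture day in passage 2 spheres, with lines joining libraries of the same replicate number. Replicate 2 lies above the others for Ereg, up to 70.2 FPKM on day 10, and for Hbegf, up to 145, while Btc stays between 5.32 and 8.08.

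Several genes that release the ligands were also higher in spheres. Of 6 such genes 4 were tested, and 2 passed as higher in day 7 spheres than in adult LG and 4 as higher than in E17.5 LG, with median differences of 0.86 and 0.84 against -0.08 and -0.10 over all genes. The shares of all genes that passed as higher were 14.2% and 18.1%. Adam10, a membrane metalloprotease, was 31.9 FPKM on day 7, 8.49 in adult LG and 13.2 at E17.5 (1.78 ± 0.24 against adult, limma adjusted p = 0.00255, and 1.19 ± 0.17 against E17.5, limma adjusted p = 0.00184). Adam17, the main releasing enzyme of TGFA and AREG, was 19.6 FPKM on day 7 and 6.43 in adult LG (1.48 ± 0.21, limma adjusted p = 0.00296), and higher than the adult at E17.5 too, with 15.2 FPKM (1.13 ± 0.16, limma adjusted p = 0.000497). Rhbdf2, which helps ADAM17 mature, was higher in day 7 spheres than at E17.5 (2.10 against 0.335 FPKM, 1.22 ± 0.12, limma adjusted p = 0.000433) and lower at E17.5 than in the adult (-1.21 ± 0.17, limma adjusted p = 0.000508). Its embryonic means (0.335 FPKM at E17.5, 0.498 at E19.5) were under the filter of 0.5. It entered against E17.5 LG through the spheres and in the gland through the adult, so both calls are given as a description.

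Several feedback inhibitors were listed lower in spheres. Of 12 genes 7 were tested, and in day 7 spheres 3 passed as lower than in adult LG with 0 higher, and 4 as lower than in E17.5 LG with 1 higher, where 21.1% and 29.6% of all genes were lower. Spry4 and Errfi1 reached the filter of 0.5 FPKM through the gland alone in both comparisons, so that they had to be lower to be tested. Lrig3 (0.992 FPKM on day 7, 0.194 at E17.5) entered against E17.5 LG through the spheres alone. The counts are therefore given as a description. Dusp5, a phosphatase of ERK, was 26.4 FPKM on day 7 and 215 in adult LG (-3.03 ± 0.38, limma adjusted p = 0.00205), and Errfi1, which binds and inhibits EGFR, was 0.358 against 4.23 (-1.92 ± 0.25, limma adjusted p = 0.00211). At passage 10, however, Errfi1 was listed at 12.4 FPKM. On day 7, 6 of the 12 inhibitors were under 0.1 of their passage 10 value. So were 50.5% of genes with at least 10 FPKM at passage 10, a floor that was not set for the 12 and that Spry1 (3.98 FPKM), among the 6, did not reach. Values near 0 are given as listed. Spry4, a Sprouty inhibitor of RAS-MAPK signalling, was 0.149 FPKM on day 7, 3.80 in adult LG and 22.7 at E17.5 (-1.94 ± 0.35 and -4.37 ± 0.10, limma adjusted p = 0.00734 and 1.41e-06), and its call against adult LG was lost on the scale of recovered reads (adjusted p = 0.0654). Spry2 was 21.3 against 121 FPKM at E17.5 (-2.46 ± 0.11, limma adjusted p = 1.95e-05) and Dusp6 was 30.4 against 177 (-2.53 ± 0.17, limma adjusted p = 9.48e-05). The median difference from E17.5 LG was -1.01 over the 7 genes, and that from adult LG -0.77. On recovered reads the median difference from adult LG turned to 0.18, beside 0.53 over all genes, with 2 lower and 0 higher.

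Transcription factors and other genes that the pathway induces moved in both directions. Of 12 genes 11 were tested, with 4 higher and 4 lower in day 7 spheres than in adult LG and 1 higher and 5 lower than at E17.5 (median differences 0.15 and -0.64). Over all genes tested 14.2% were higher and 21.1% lower against adult LG, and 18.1% and 29.6% against E17.5 LG. Egr1, an immediate early gene, was 7.55 FPKM on day 7, 135 in adult LG and 348 at E17.5 (-3.88 ± 0.44 and -5.39 ± 0.20, limma adjusted p = 0.00135 and 8.69e-06), and Fos was 13.1, 143 and 243 (-3.20 ± 0.44 and -4.13 ± 0.18, limma adjusted p = 0.00277 and 1.5e-05). Fosl1, an AP-1 subunit, went the other way, with 59.3 FPKM on day 7, 4.72 in adult LG and 4.63 at E17.5 (3.63 ± 0.57 and 3.37 ± 0.26, limma adjusted p = 0.00431 and 0.000142). On the scale of recovered reads the calls of Ier2 and Phlda1 against adult LG were lost.

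Signal transduction genes numbered 24, of which 20 were tested, and 7 were higher and 1 lower in day 7 spheres than in adult LG, and 9 higher and 3 lower than at E17.5 (median differences 0.35 and 0.11). Among all genes tested 14.2% were higher and 21.1% lower against adult LG, and 18.1% and 29.6% against E17.5 LG. Nras, a RAS protein, was 39.3 FPKM on day 7 and 7.19 in adult LG (2.31 ± 0.20, limma adjusted p = 0.000583), and Akt1, a kinase of the PI3K route, was 293 and 146 (1.00 ± 0.18, limma adjusted p = 0.00732). Pik3r1, the regulatory subunit of PI3K, was lower, with 14.8 against 63.2 FPKM (-2.03 ± 0.22, limma adjusted p = 0.00116). On the scale of recovered reads 14 of the 19 tested were higher and 1 lower than in adult LG. Among all 16524 genes tested on that scale 5074 were higher and 1918 lower.

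In the gland itself several targets and inhibitors were higher in the embryo than in the adult. Etv5, an ETS factor induced by MAPK and FGF signals, was 187 FPKM at E17.5, 104 at E19.5 and 8.18 in the adult (4.52 ± 0.36 and 3.67 ± 0.36 against adult, limma adjusted p = 1.84e-05 and 6.26e-05). Of 10 targets tested 3 passed as higher at E17.5 and 6 at E19.5, with 0 lower at either stage, where 29.1% and 30.3% of all genes were higher, so that the count at E17.5 is near that of all genes. Of 5 inhibitors tested Spry2, Spry4 and Dusp6 were higher at both stages, and Dusp5 was lower at both (28.9 and 70.6 FPKM against 215, limma adjusted p = 0.000114 and 0.00261), a call lost at E19.5 on the scale of recovered reads (adjusted p = 0.0636). Errfi1 passed as lower at E17.5 on the deposited scale alone. Among 20 signal transduction genes E17.5 LG had 6 above and 3 below the adult and E19.5 LG had 5 and 3. Shares over all genes were 29.1% above and 24.9% below at E17.5, and 30.3% and 23.9% at E19.5. The counts above the adult are near these shares. On the scale of recovered reads 14 and 13 of the 19 tested were higher and none lower. Among all 17443 genes tested on that scale 8044 were higher at E17.5 and 7645 at E19.5.

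**Figure D4:**
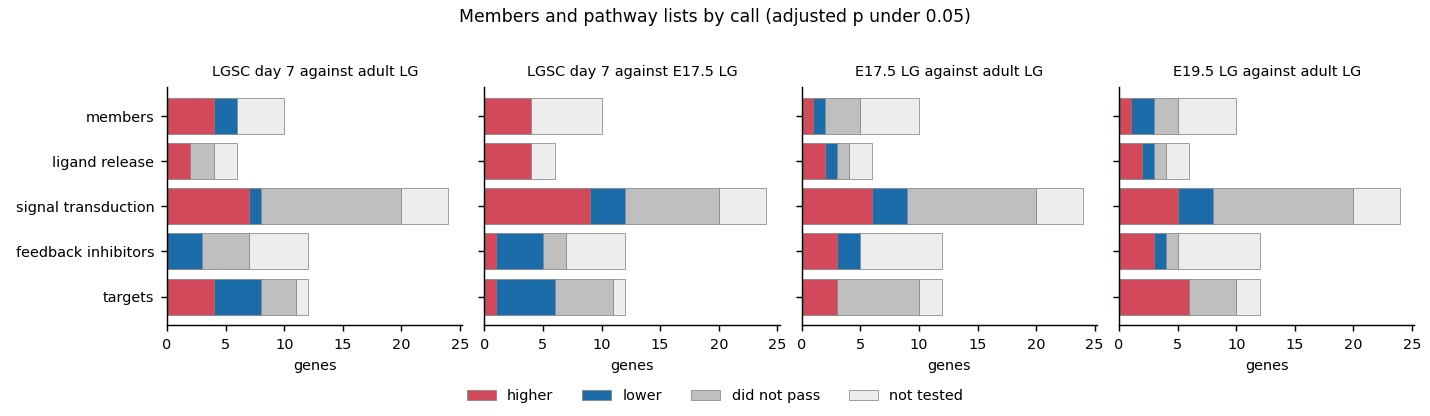
Bars count the genes of the member list and of 4 pathway lists by call in 4 comparisons, with the number of genes on the horizontal axis. Of 12 feedback inhibitors 7 were tested for day 7 spheres against adult LG, with 3 lower and 0 higher. Spry4 and Errfi1 entered that test through adult LG alone. Among all genes tested 21.1% were lower and 14.2% higher.

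The passage 10 library gave a second view of which members could be read at all. It held 71.3 FPKM of Areg (2060 reads), 21.5 of Egfr (5781 reads), 20.3 of Erbb2 (2516 reads) and 9.36 of Nrg1 (2305 reads), where the day 7 mean of passage 2 was 0 for Areg and 0.298, 0.0874 and 0.459 FPKM for the others. These 4 of 10 members were under 0.1 of their passage 10 value, as were 2695 of the 5332 genes (50.5%) with at least 10 FPKM at passage 10, of which 698 were at 0 on day 7. That floor was not set for the members, and Nrg1 was under it. The ratios of those 5332 genes had 2 peaks, 1 well under 0 and 1 above it on the log2 scale. Passage and gene list change together between these libraries and cannot be told apart. The other ligands lay nearer to their passage 2 values, with 10.2 FPKM of Tgfa, 16.2 of Ereg, 2.996 of Btc and 15.3 of Hbegf at passage 10 against day 7 means of 24.0, 15.3, 6.91 and 31.9.

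**Figure D5:**
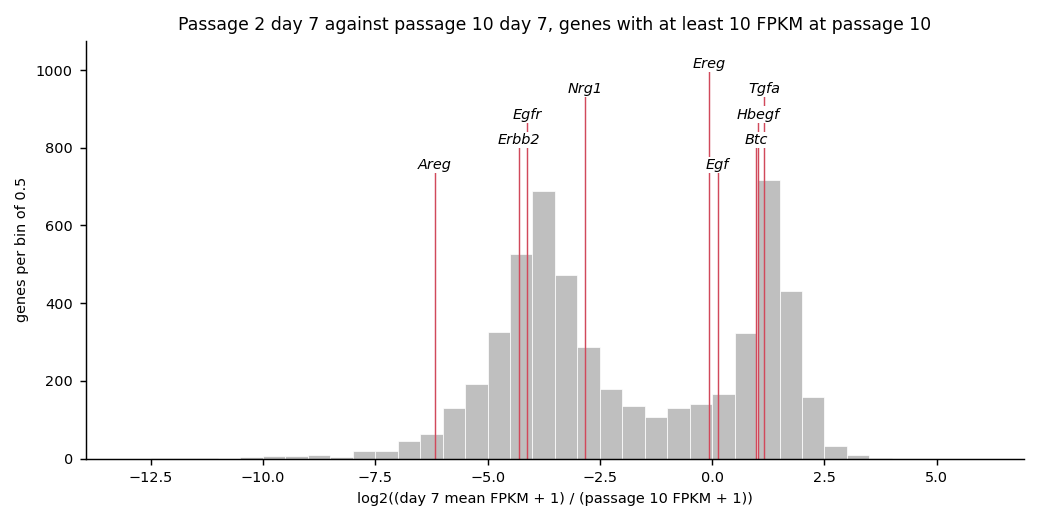
The histogram counts genes with at least 10 FPKM at passage 10 by the log2 ratio of the passage 2 day 7 mean to the passage 10 value, each with 1 added, in bins of 0.5. Vertical lines mark the 9 members above 0 at passage 10, of which Nrg1, Btc and Egf were under 10 FPKM there and are not among the counted genes. Areg, Erbb2, Egfr and Nrg1 lie to the left and the other 5 near or right of 0.

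The genes most like each member over the 20 libraries, by Pearson correlation of log2(FPKM + 1) among 10678 others averaging 1 FPKM or more, are given as a description, since the libraries fall into culture and gland. Egf was closest to Slc10a5 (0.995), 9130230L23Rik (0.994) and Myrip (0.994), and Btc to Gm6169 (0.979), Pmaip1 (0.972) and Iqgap1 (0.972). Tgfb1 (0.972) and Pthlh (0.963) were among the 3 genes closest to Tgfa. Ereg was closest to Slc15a1 (0.975), Cdsn (0.969) and Defb14 (0.966), and Hbegf to Defb6 (0.904), Ereg (0.897) and Hsd17b2 (0.894). Among the members, Egf had correlations of -0.72 with Tgfa and -0.69 with Btc, and Tgfa of 0.87 with Btc and 0.86 with Ereg. Epgn, Ereg, Areg and Btc are neighbours on chromosome 5 and the only 4 protein-coding genes of GENCODE M21 within 91027464 to 91402994, a span of 376 kb. In spheres Ereg and Btc were above their gland levels, while Areg was listed at 0 and Epgn at 0 in 8 of 11 libraries.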

How the data were processed

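Of 24 samples listed, 21 were analysed. The third day 5 replicate and the passage 6 and 20 libraries were not analysed here. Groups and replicate numbers came from the labels. Libraries were made with the NEBNext Ultra kit from poly-A RNA and sequenced as 150-bp pairs. The submitters' processing notes name CASAVA 1.8, HISAT2 2.0.5, featureCounts 1.5.0-p3 and build NCBIM37. The values the authors deposited for each gene of a library were taken as FPKM, from their size and steps. The step from counts to FPKM is not given in the sources used here. GENCODE M21 supplied symbols and positions by Ensembl identifier. Identifiers with a symbol numbered 52403 of 52636, and 11226 assembled loci had none.

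Dividing a gene's values by the value of 1 read gave whole reads for 99.7% to 99.8% of values up to 1000 reads, at a tolerance of 0.01, in the 20 libraries and 98.7% at passage 10. Total recovered reads were 5993542 to 9393356 in the 20 libraries, so means under 0.5 FPKM rest on few reads and were given without a test.

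Tests used limma 3.58.1 (lmFit, eBayes with trend, R 4.3.3) on log2(FPKM + 1) for every gene whose mean in the fit reached 0.5 FPKM, with Benjamini-Hochberg adjustment over all of them and a threshold of 0.05. A difference on this scale understates the change of low genes. The 3 gland groups shared a fit of 9 libraries. The fits were tested on simulated data. Alternatives were a pseudocount of 0.1, no filter, limma-voom on recovered reads, scaling to recovered reads, the replicate number as a block, other sets of libraries, log2 of the day, and each library left out.

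The members, pathway lists and marker lists were chosen with earlier results of these data known. All 10 members were named, and in each list up to 3 tested genes with the smallest adjusted p of a comparison, with some described in a further comparison. Lists are described by counts and medians, and some of their genes reached the filter through 1 group alone. Of the 3 genes most like Tgfa, 1 is not reported here. Same-numbered sphere libraries deviated together (lowest correlation 0.26 over 15 pairs), while differently numbered ones reached at most 0.44 over 30 pairs. The number entered as a block in alternatives alone. Tables and plots were made with matplotlib 3.10.9, pandas 2.3.3 and numpy 2.4.6 under Python 3.11.15.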

Additional observations from a re-analysis of the deposited data

Results flagged for a closer look

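A pair of family genes gave signal in the passage 10 library, which entered no comparison, and none in the 20 other libraries. Areg stood at 71.3 FPKM there (2060 reads) and Erbb3, the receptor of NRG1 that lacks an active kinase, at 29.1 FPKM (4164 reads). Both were listed at 0 in all 20 passage 2 and gland libraries. Passage and gene list cannot be told apart between them, and with 1 library there was no test.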

How the results depend on the processing

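Of 234 member differences under alternatives other than leaving out libraries, 219 kept their direction and side of the threshold, 4 no longer passed, 6 came to pass and 5 turned direction. Those that turned were Hbegf for E17.5 against adult LG scaled to recovered reads (0.68), and Btc, near 0 throughout, for day 14 against day 7 scaled to recovered reads (0.022) and for the slope with the replicate block (-0.0018), with limma-voom and the block (-0.0011) and over days 7, 10 and 14 (-0.0035). Without replicate 2 of every day, a setting added after the data were seen, Btc for day 14 against day 7 was 0.046. With 1 library left out, values that could turn ran from -0.24 to 0.068 for Hbegf and -0.048 to 0.26 for Btc at E17.5 against adult LG, from -0.074 to 0.44 for Tgfa at E19.5, from -0.22 to 0.20 for Tgfa, -0.35 to 1.32 for Ereg and -0.12 to 0.13 for Btc for day 14 against day 7, and from -0.0064 to 0.020 for the Btc slope. The number of members past the threshold ran from 1 to 3 at E17.5 (2 with all libraries) and from 0 to 2 for E19.5 against E17.5 (0 with all). For E19.5 against E17.5 it was 1 with no filter and 1 in limma-voom with the block, and for the slope 1 with the block and 1 in limma-voom with the block. The cause was not tested.

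In the gland, and between spheres and gland, libraries shared only a number (mean correlation of deviations -0.0095 in the gland), and the replicate block took Hbegf in day 7 spheres against adult LG to an adjusted p of 0.0791 and changed no other member's call in those comparisons. Genes called overall for E19.5 against E17.5 numbered 323, against 100 with the block, 162 with a pseudocount of 0.1, 180 on recovered reads, 524 in limma-voom, 511 with all 20 libraries and 50 to 1736 without 1 library. For the slope they were 334, against 82 with no filter, 783 with the block, 1317 in limma-voom with the block, 0 over days 7, 10 and 14 and 11 to 384 without 1 library. For day 14 against day 7 they were 0, against 139 in limma-voom with the block and 50 with all 20 libraries. For day 7 spheres against adult LG they were 6238, with 3770 to 8135 without 1 library. Erbb2, Egfr and Nrg1 rested on 1 to 72 reads per library in the 20 libraries, which limits their precision there.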

Other observations

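Nrg4, a neuregulin that binds ERBB4, stood at 4.37, 2.86 and 0.281 FPKM in the 3 adult libraries, 0.106, 0.154 and 0.185 at E17.5, 0.0565, 0.0915 and 0.0420 at E19.5 and at most 0.129 in spheres. It passed as lower at E17.5 (-1.38 ± 0.44, limma adjusted p = 0.0283) and E19.5 (-1.49 ± 0.44, limma adjusted p = 0.0205) than in adult LG, and did not pass for day 7 spheres against adult LG (-1.52 ± 0.51, limma adjusted p = 0.0606). In each of these fits it reached the filter of 0.5 FPKM through the adult libraries alone. It had to be higher in the adult to be tested, so the calls are given as a description. Scaled to recovered reads it passed for day 7 spheres (-0.93, limma adjusted p = 0.0489) and was under the filter in the gland fit. Its adult replicate 3 lay far under the other adult libraries, as for Erbb4. Nrg3 was listed at 0 in the adult and passage 10 libraries and at 0.289 to 0.453 FPKM at E17.5. Epgn was above 0 in replicate 2 of days 7, 10 and 14 alone among the spheres (0.354, 0.287 and 0.124 FPKM, from 2 to 5 reads).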
